A study of Mus musculus with 6 samples.

Results

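The Gimap genes (GTPases of immunity-associated proteins) form a family of small GTP-binding proteins of lymphocytes, and their expression was examined across splenic regulatory T (Treg) cells of mice. The members were the 8 Gimap genes found by symbol in the deposited table of unique molecular identifier (UMI) counts, Gimap1, Gimap3, Gimap4, Gimap5, Gimap6, Gimap7, Gimap8 and Gimap9, out of 14098 genes in all. They were taken by symbol and not by their values, although the family was taken up with earlier results of these data known, and no other Gimap gene stood in the table. Together they held 75021 of the 25389602 UMIs.

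Treg cells, the Foxp3-expressing CD4 T cells that restrain immune responses, had been enriched from spleen and sorted by FACS on an EGFP reporter, and their RNA was counted with droplet-based 3′ single-cell sequencing (10x Chromium, v2). The 6 samples were 3 of Bach2fl/fl Foxp3EGFP-Cre-ERT2 mice (conditional knockout, cKO) and 3 of Bach2+/+ Foxp3EGFP-Cre-ERT2 mice (wild type, WT), all C57BL/6, treated with tamoxifen and 18 to 21 weeks old. Both genotypes carry the EGFP-Cre-ERT2 allele at Foxp3, which restricts the tamoxifen-activated Cre recombinase to Foxp3-expressing cells, so that Bach2, a transcriptional repressor of lymphocytes, is removed from Treg cells of the cKO mice only after treatment. The cells fell into 6 sets by the number at the end of their barcode, and no name tied a set to a sample, so cKO and WT cells were not compared.

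Gimap proteins share an AIG1-type GTP-binding domain, and most sit on intracellular membranes, where they are thought to act as scaffolds whose assembly depends on GTP. In mice and rats the family is known for keeping T lymphocytes alive: loss of Gimap5 depletes peripheral T cells, and Gimap1 is needed for mature T and B cells. Members have been linked to the Bcl-2 family of apoptosis regulators and, through Gimap6 and its partner Gabarapl2, to autophagy.

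Levels are in CPM, a gene's UMIs per 1000000 UMIs of the same cells, and intervals are at 95% and reflect counting error alone. The 6 sets had 1641 to 1900 kept cells with median totals of 2003 to 2229.5 UMIs, and 63 barcodes occurred in more than 1 set. Because the sets were not tied to samples, there were no replicates of a group. No p-value was computed, and the range over the 6 sets stands beside the main pooled values. Among 10680 kept cells, 10248 were scored as Treg cells, after 83 B cell-like, 30 myeloid-like and 4 erythroid-like cells and 315 cells with fewer than 1000 UMIs had been set apart. The Treg label rests on the sort and on the removal of these cells. In the scored cells 5 Treg markers (Foxp3, Il2ra, Ikzf2, Ctla4, Tnfrsf18) summed to 1779 CPM. Their sum was 466 CPM in the B cell-like and 886 CPM in the myeloid-like cells. The 6 B cell markers summed to 49.5 CPM in the scored and 7411 CPM in the B cell-like cells. That difference follows from the rule, because these markers set the B cell-like cells apart.

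The states of the Treg cells were set by marker UMIs in cells thinned to 1000 UMIs, and no Gimap gene was a marker. A cell was called activated with at least 2 UMIs of the activated markers and more of them than of the resting markers, and resting the other way round. By this rule 5304 cells (51.8%) were activated and 1288 (12.6%) resting. Activated cells were divided by their leading list into TCR-stimulated cells (2551, with markers such as Tnfrsf9, Tnfrsf4 and Nr4a1), S100a4 cells (1200, with S100a4, Klrg1 and Cxcr3) and Ccl5 cells (464, with Ccl5, Nkg7 and Maf), and 1089 were tied. The remaining groups were cells in between (3332), cells rich in interferon-response genes (243), cycling cells (60) and cells with Tmem176 markers (21).

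The members lie in 1 cluster on mouse chromosome 6, from 48647234 to 48770851 (GRCm38/mm10, GENCODE M21), a span of 124 kb. In genome order these are Gimap8 (48647234 to 48660875), Gimap9 (48676129 to 48679114), Gimap4 (48684549 to 48692060), Gimap6 (48701582 to 48708225), Gimap7 (48718621 to 48724636), Gimap1 (48739054 to 48743795), Gimap5 (48746197 to 48754210) and Gimap3 (48764464 to 48770851). All 8 are annotated as protein-coding, 6 on the plus strand and 2, Gimap6 and Gimap3, on the minus strand. The 250 bases before the RefSeq start are shown for 3 members with contrasting results, Gimap5 with the largest activated-over-resting ratio, Gimap7 with the next, and Gimap4, one of the most abundantly counted, with a ratio near 0 on the log2 scale. All are plus-strand sequences from RefSeq (GRCm38.p6), at chr6:48745947-48746196 for Gimap5, chr6:48718371-48718620 for Gimap7 and chr6:48684328-48684577 for Gimap4, with matches to the searched motifs in capitals. The Gimap4 stretch ends inside the GENCODE gene, since the start used for it lies downstream of the GENCODE start.
Gimap5: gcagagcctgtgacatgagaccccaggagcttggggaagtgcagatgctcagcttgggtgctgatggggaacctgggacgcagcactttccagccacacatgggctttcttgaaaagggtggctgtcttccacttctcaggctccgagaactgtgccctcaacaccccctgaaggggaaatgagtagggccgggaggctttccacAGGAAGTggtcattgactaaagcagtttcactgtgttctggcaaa
Gimap7: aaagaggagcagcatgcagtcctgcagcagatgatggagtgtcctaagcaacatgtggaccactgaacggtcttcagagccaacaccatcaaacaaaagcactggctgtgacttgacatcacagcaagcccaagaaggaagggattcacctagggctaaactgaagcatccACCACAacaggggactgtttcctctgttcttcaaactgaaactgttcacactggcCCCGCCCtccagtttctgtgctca
Gimap4: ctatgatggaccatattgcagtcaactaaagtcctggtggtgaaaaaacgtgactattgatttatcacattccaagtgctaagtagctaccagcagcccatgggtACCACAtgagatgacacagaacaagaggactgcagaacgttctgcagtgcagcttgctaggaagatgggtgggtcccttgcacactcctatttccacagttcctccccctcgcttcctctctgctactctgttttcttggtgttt
The capitals mark an ETS motif (AGGAAGT) in Gimap5, a RUNX motif (TGTGGT, here as its reverse complement) in Gimap7 and Gimap4, and a KLF motif (GGGCGGG, also as its reverse complement) in Gimap7. Motifs were searched on both strands in the 9 RefSeq promoters of the 8 members (Gimap8 has 2) and in all 32851 promoters of the same length. AGGAAGT stood in 1 member promoter, that of Gimap5, and in 7.69% of all promoters. TGTGGT stood in those of Gimap1, Gimap4 and Gimap7 and in 14.0% of all promoters, and GGGCGGG in those of Gimap7 and Gimap9 and in 23.4% of all. No member promoter held the AP-1 motif (TGANTCA, in 6.75% of all promoters), the longer element that Bach and Maf factors bind (TGC directly before the AP-1 motif, 0.353%), the other ETS motif (CCGGAA, 12.03%), either NF-kB motif (GGG, any 2 bases and TTTCC, in 1.41%, or GGGA, any 2 bases and TTCC, in 1.21%) or the IRF motif (GAAA, any 2 bases and GAAA, in 2.98%). FOXO (GTAAACA, 3.17% of all promoters) was found in the promoter of Gimap3, STAT (TTCNNNGAA, 7.02%) in those of Gimap6 and Gimap8, and NFAT (GGAAAA, 20.4%) in those of Gimap1, Gimap3 and Gimap6. A match describes these letters only.

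Across all Treg cells the members' summed level was 2963 CPM (2941 to 2984). Gimap3 had 15691 UMIs, Gimap4 14114, Gimap6 14004 and Gimap1 13918, against 5688 for Gimap5, 5384 for Gimap7, 3033 for Gimap9 and 1635 for Gimap8. These are 3′ UMI counts, so they say how precisely each member was measured and do not rank the members per transcript length. In cells thinned to 1000 UMIs, 93.4% (92.9 to 93.8) of Treg cells held a UMI of at least 1 member (99.3% without thinning). The thinned share was 91.6% (83.4 to 96.5) in the 83 B cell-like cells and 63.3% (43.9 to 80.1) in the 30 myeloid-like cells, at median depths of 2128 UMIs in Treg, 1958 in B cell-like and 3168.5 in myeloid-like cells before thinning. Transcripts of the family were thus counted in nearly every Treg cell, but a UMI of some member was also found in most cells of the other types. The part of free RNA and doublets in these counts was not tested.

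The first question was whether the family as a whole or single members differed between activated and resting Treg cells. Gimap5, whose product is needed for T cell survival in mice and rats, was the member that differed most. In activated cells it stood at 298, 276, 295, 258, 284 and 326 CPM in sets 1 to 6, and in resting cells at 135, 147, 131, 126, 136 and 203 CPM. The lowest activated set lay above the highest resting set, and set 6 was the highest in both states. Pooled, Gimap5 was at 289 CPM (279.9 to 299) in activated cells and 144 CPM (132 to 157) in resting cells, a 2.01-fold difference or 1.01 on the log2 scale (0.87 to 1.15), with set ratios of 0.67 to 1.16. The share of thinned cells with a Gimap5 UMI was 23.9% (22.7 to 25.04) in activated and 13.2% (11.4 to 15.2) in resting cells, 21.7% (13.4 to 32.1) in the B cell-like and 13.3% (3.76 to 30.7) in the few myeloid-like cells. The resting share was no higher than that of the myeloid-like cells, and the activated share lay within the interval of the B cell-like cells, so neither share is read as expression on its own.

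A gene was called when it differed at least 1.5-fold (0.58 on the log2 scale) and kept its direction within 6 of 6 sets, among 8074 genes with at least 100 UMIs over both states. Of the 8 members, all measured, 1 was called higher in activated cells, Gimap5, against 9.07% of all measured genes, and 0 were called lower, against 1.18%. The share of members is near the background, so the count itself sets the family apart in neither direction. The median measured gene was itself 0.22 higher on the log2 scale in activated cells. Ribosomal protein genes summed to 317800 CPM in activated cells and 393907 CPM in resting cells, and with totals that leave out ribosomal protein and mitochondrial genes the log2 ratio of Gimap5 was 0.84. Relative to the median gene, Gimap5 was 0.79 higher and remained called, as were 5.07% of genes called higher and 2.96% lower. Its ratio exceeded that of 95.1% of measured genes. Gimap5 had the largest ratio of the 8 members in 6 of 6 sets, by 0.31 to 0.66 over the next member.

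The other members differed less, and their median was close to that of all genes. Gimap7, a GTPase that in human cells can stimulate GTP hydrolysis in other family members, stood at 248, 179, 214, 266, 309 and 205 CPM in activated cells of sets 1 to 6 and at 178, 133, 168, 166, 206 and 158 CPM in resting cells. It was higher in activated cells of 6 of 6 sets, although the ranges of the sets overlapped, with a pooled log2 ratio of 0.53 (0.40 to 0.66) that missed the 1.5-fold threshold. Set against the median gene it was 0.32 higher. Gimap1, which resides at the Golgi, had 604 CPM in activated and 474 CPM in resting cells, a log2 ratio of 0.35 (0.27 to 0.43) that was positive in 6 of 6 sets. Its set 3 had the largest ratio at 0.63, against 0.31 in the next set, and without set 3 the pooled ratio was 0.28.

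Gimap3, the closest relative of Gimap5 among these genes by longest shared exon sequence, had 648 CPM in activated and 559.9 CPM in resting cells, a log2 ratio of 0.21 (0.14 to 0.28). Gimap6, the partner of the autophagy protein Gabarapl2, had 592 CPM in activated and 527 CPM in resting cells (0.17, 0.09 to 0.24), and Gimap4, linked to T cell apoptosis and cytokine secretion, 581 CPM in activated and 555 CPM in resting cells (0.07, -0.01 to 0.14). Gimap8, which carries more than 1 GTP-binding domain, had 69.3 CPM in activated and 60.4 CPM in resting cells (0.20, -0.02 to 0.42), and Gimap9 125 CPM in activated and 121 CPM in resting cells (0.04, -0.12 to 0.20). These 5 ratios lay at or below that of the median gene, and each became slightly negative, -0.18 to -0.004, relative to it. Direction without a fold was the same in 6 of 6 sets for 4 members, Gimap1, Gimap3, Gimap5 and Gimap7, all higher, as it was for 19% of measured genes. The members' median log2 ratio was 0.21, against 0.22 over all measured genes. These values pool sets that differ in level and in number of activated and resting cells. The pooled ratio of Gimap4 lay above each of its set ratios, -0.04 to 0.06 with a median of 0.005. The median set ratio was 0.45 for Gimap7, 0.28 for Gimap1, 0.15 for Gimap3, 0.15 for Gimap6 and 0.03 for Gimap9. It was above the pooled value for Gimap5 (1.03) and Gimap8 (0.25).

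**Figure D1:**
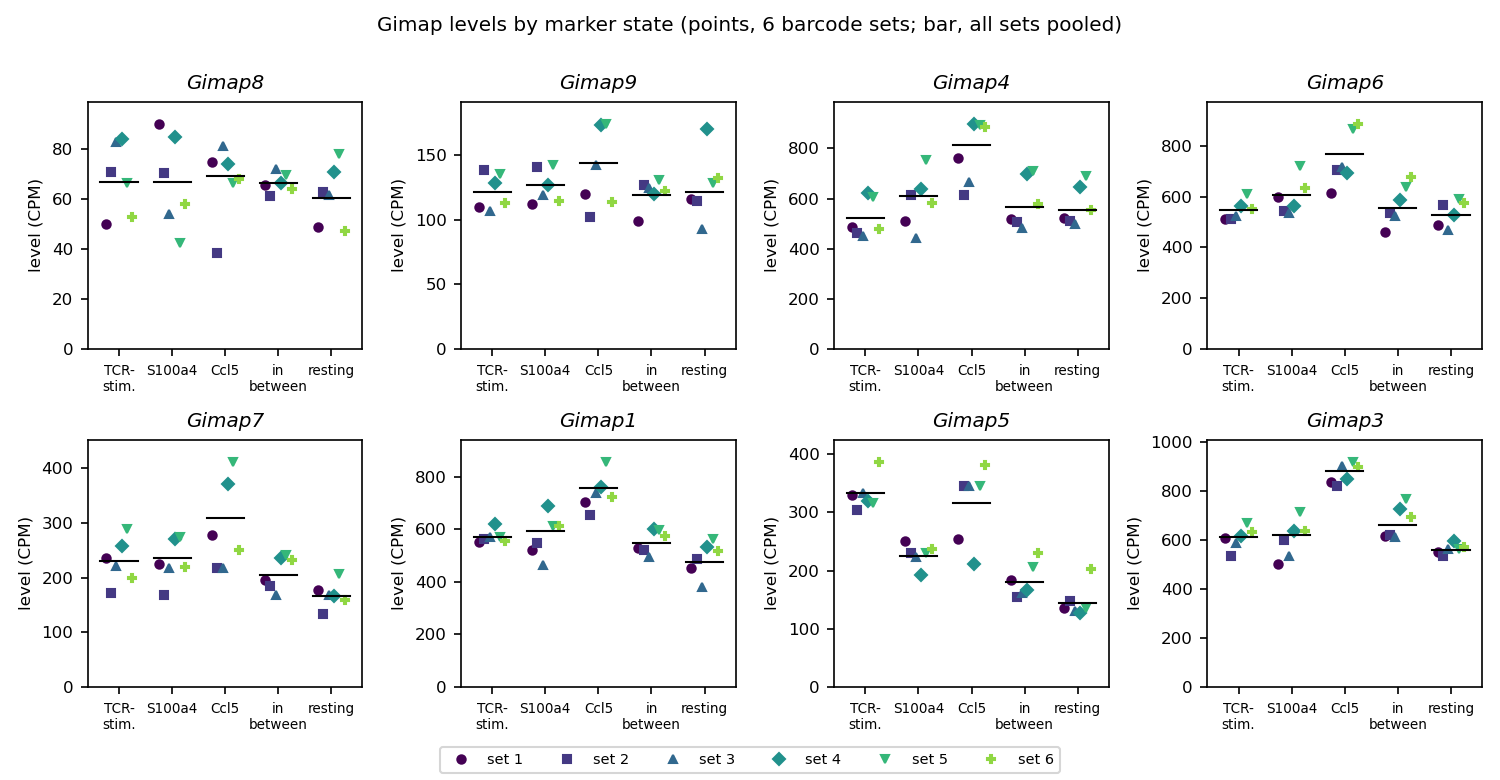
Level of each member (CPM, vertical axes from 0, a scale of its own per panel) in TCR-stimulated, S100a4, Ccl5, in-between and resting Treg cells; each symbol is 1 of the 6 barcode sets and the bar is the level pooled over sets. Gimap5 was at 304 to 386 CPM in TCR-stimulated cells and at 126 to 203 CPM in resting cells, while Gimap4 overlapped between these states.

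The unequal change also shows within the family. Gimap5 made up 9.19% (8.90 to 9.48) of all Gimap UMIs in activated cells and 5.52% (5.06 to 6.01) in resting cells. The shares of the sets were 7.79 to 10.4% in activated cells and 4.45 to 7.36% in resting cells, with no overlap. In TCR-stimulated cells the share was 11.1%, in S100a4 cells 7.27% and in Ccl5 cells 7.78%. It was 9.50% (6.87 to 12.7) in the B cell-like cells and 8.81% (4.90 to 14.3) in the myeloid-like cells, near the value of activated Treg cells, on 40 and 14 Gimap5 UMIs. As a ratio within the family this does not depend on the total UMIs of a cell.

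The 3 kinds of activated cells were then set against resting cells, which all 3 comparisons share. TCR-stimulated cells are named for a list of genes that T cell receptor signalling can induce. Most counted in it was Tnfrsf4, at 991 CPM in activated and 276 CPM in resting cells, against 37.4 and 17.9 CPM for Nr4a1. In TCR-stimulated cells Gimap5 was at 330.0, 304, 333, 319, 316 and 386 CPM in sets 1 to 6, all above the resting range of 126 to 203 CPM. The pooled log2 ratio was 1.21 (1.07 to 1.36), and Gimap5 was the only member called there, 1 of 8 against 9.46% of genes called higher, while 0 were called lower, against 1.92%. It was also the only member called relative to the median gene, by 1.005, against 5.36% of genes. Gimap4 was slightly lower, at 521 CPM in TCR-stimulated and 555 CPM in resting cells, with a ratio of -0.09 (-0.17 to -0.01) that was negative in 6 of 6 sets.

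In S100a4 cells Gimap5 was at 251, 230.0, 224, 192, 229.8 and 236 CPM in sets 1 to 6, with 224 CPM pooled, against 144 CPM in resting cells. The ranges overlapped, since resting cells reached 203 CPM in set 6. Gimap5 had the largest ratio of the members in 4 of 6 sets. The log2 ratio was 0.64 (0.47 to 0.81) and Gimap5 was again the only member called, 1 of 8 against 10.1% of genes higher, with 0 lower against 1.64%. When set against the median gene the ratio was 0.40 and the call was lost, leaving 0 of 8 called higher, against 4.64% of genes. Gimap7 stood at 0.50 (0.33 to 0.66) and the remaining 6 members between 0.07 and 0.33.

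In Ccl5 cells 6 of the 8 members, all but Gimap8 and Gimap9, stood above resting cells in 6 of 6 sets, as did 14.8% of genes. The same count was 4 of 8 in TCR-stimulated cells (Gimap1, Gimap3, Gimap5 and Gimap7), against 20.1% of genes, and 3 of 8 in S100a4 cells (Gimap1, Gimap5 and Gimap7), against 20.5%. The summed level was 3644, 3492, 3810, 4028, 4525 and 4202 CPM in sets 1 to 6, against 2493, 2554, 2369, 2838, 2951 and 2762 CPM in resting cells, with no overlap. Called higher were 4 of 8 members, against 8.11% of genes, and lower 0, against 1.82%. They were Gimap5 (log2 ratio 1.13, 0.92 to 1.34), Gimap7 (0.89, 0.68 to 1.09), Gimap1 (0.68, 0.55 to 0.80) and Gimap3 (0.65, 0.53 to 0.77). These values pool sets that differ in level and in number of Ccl5 cells. The median of the 6 set ratios was 0.56 for Gimap1, below the 1.5-fold threshold, and 1.09, 0.70 and 0.64 for Gimap5, Gimap7 and Gimap3. Gimap4 (0.55) and Gimap6 (0.54) were higher in 6 of 6 sets but missed the fold. All 8 members lay above the median gene, which was 0.18 higher, and relative to it 2 remained called, Gimap5 (0.95) and Gimap7 (0.70), against 4.44% of genes. This state is the smallest of the activated ones, with 42 to 122 cells in a set, and had the fewest UMIs per cell, a median of 1774 against 2572 in resting cells. The part of depth in this result was not tested.

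Gimap3, whose product sits on mitochondria and endoplasmic reticulum in mice, illustrates the Ccl5 state. It had 838, 819, 902, 848, 917 and 897 CPM in Ccl5 cells of sets 1 to 6 and 549, 533, 565, 596, 561 and 572 CPM in resting cells. Every Ccl5 value was above every resting value. In TCR-stimulated cells the same gene had 609, 535, 586, 617, 668 and 634 CPM, which overlapped the resting values. The corresponding levels of Gimap4 were 614 to 897 CPM in Ccl5 cells, 452 to 622 CPM in TCR-stimulated cells and 501 to 689 CPM in resting cells, so that the Ccl5 and resting ranges overlapped although each set was higher in its Ccl5 cells.

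Directly against Ccl5 cells, TCR-stimulated cells were lower in Gimap4 by 0.64 on the log2 scale (interval -0.76 to -0.53), in 6 of 6 sets, with a median set ratio of -0.56, short of 1.5-fold. It was 1 of 8 members called lower, against 1.8% of genes, and 0 were called higher, against 2.31%. Without reaching 1.5-fold, Gimap3 (-0.52), Gimap6 (-0.49) and Gimap1 (-0.40) were lower in 6 of 6 sets, a direction shared by 5.69% of genes. Gimap7 (-0.42) was lower in 5 sets. Gimap5 was the exception, with 333 CPM in TCR-stimulated and 316 CPM in Ccl5 cells and a ratio of 0.08 (-0.10 to 0.26), higher in 3 sets and lower in 3. Against S100a4 cells, TCR-stimulated cells had 0 of 8 members called in either direction, against 3.45% of genes higher and 4.35% lower. Gimap5 came closest, at 0.57 (0.44 to 0.70) and higher in 6 of 6 sets, and relative to the median gene (-0.03) it was 0.60 higher and called, as were 3.89% of genes. Ccl5 over S100a4 cells also gave 0 calls of 8, against 1.35% of genes higher and 2.51% lower, and the members' log2 ratios were 0.05 to 0.51 with a median of 0.37, against -0.03 over all genes.

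**Figure D2:**
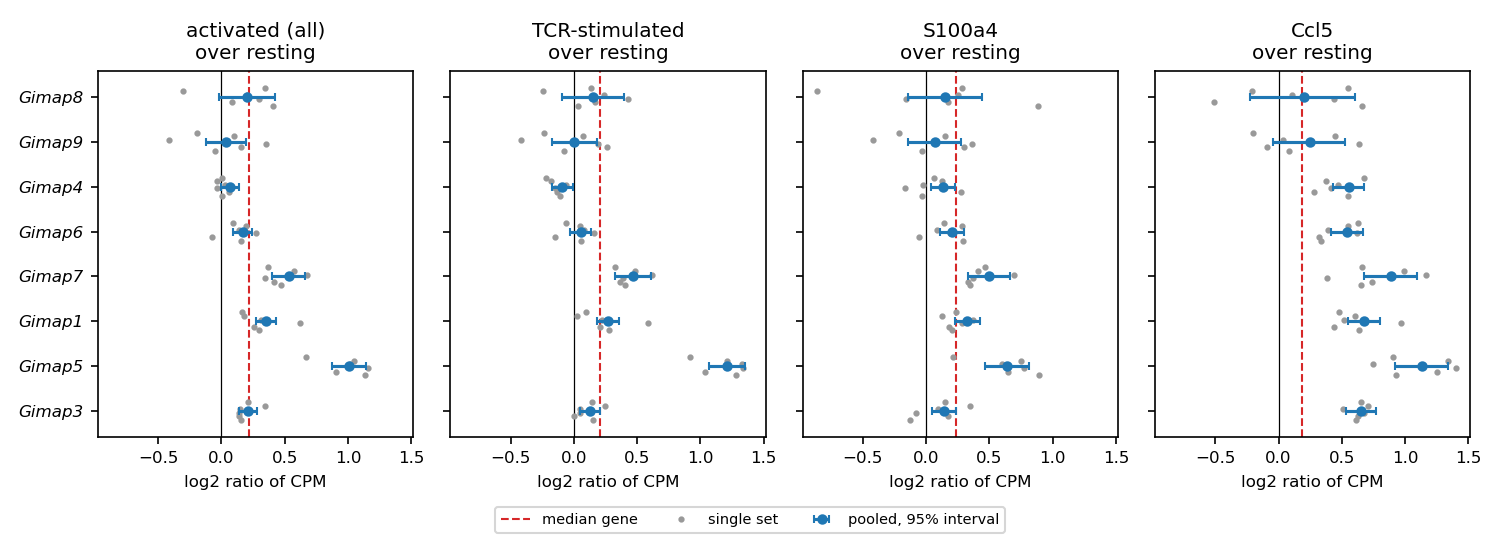
Log2 ratio of CPM of each member (rows, in genome order) in all activated, TCR-stimulated, S100a4 and Ccl5 cells over resting cells; large points are pooled ratios with 95% counting intervals, small points the 6 barcode sets, and the dashed line is the median of all measured genes. Gimap5 is farthest right in each panel, at 1.01, 1.21, 0.64 and 1.13, and in the Ccl5 panel all 8 members lie to the right of the dashed line.

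In the remaining states compared, at most 1 of 8 members was called without reference to the median gene. In-between cells had 0 of 8 members called, against 2.01% of genes higher and 0.552% lower. Gimap5 was at 181 CPM there, with a ratio over resting cells of 0.33 (0.18 to 0.48). Gimap1, Gimap3 and Gimap5 were higher than in resting cells in 6 of 6 sets, as were 6.65% of genes. The interferon state also had 0 calls, against 5.11% higher and 0.949% lower, and Gimap5 there was at 201 CPM, 0.48 (0.17 to 0.78) over resting cells. In the 60 cycling cells Gimap3 was at 325 CPM, against 559.9 CPM in resting cells, a log2 ratio of -0.78 (-1.02 to -0.56) with 0 of 6 sets higher. It was the 1 of 8 members called lower, against 5.31% of genes, and 0 were called higher, against 17.1%. Relative to the median gene 4 of 8 members were called lower, Gimap3, Gimap4, Gimap6 and Gimap8, against 9.59% of genes. For Gimap8 this rests on only 18 UMIs in cycling cells, as few as 1 in a set. Cycling cells held a median of 7826.5 UMIs and 4 to 20 cells per set, and the part of depth was not tested. Over the main states the pooled level of Gimap5 ran 333 CPM in TCR-stimulated, 316 CPM in Ccl5, 224 CPM in S100a4, 181 CPM in in-between and 144 CPM in resting cells. Neighbours in this order overlapped in their set ranges, whereas TCR-stimulated cells (304 to 386 CPM) did not overlap S100a4 cells (192 to 251 CPM).

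A finer view came from the number of marker UMIs per thinned cell, counted separately for each list. With 0, 1, 2, 3, 4 and at least 5 TCR-stimulated marker UMIs, Gimap5 was at 174, 205, 245, 301, 326 and 475 CPM. Every step was upward, and the set ranges were 435 to 538 CPM at 5 or more and 148 to 226 CPM at 0. The log2 ratio of 5 or more over 0 was 1.45 (1.33 to 1.57). Gimap5 was the only member called, 1 of 8 against 9.65% of genes higher and 0 against 3.07% lower, as it was relative to the median gene, against 5.87% of genes. Its ratio exceeded that of 98.5% of measured genes. The other 7 members lay between -0.18 and 0.14. For Gimap4, for example, the level was 504 CPM at 5 or more and 572 CPM at 0.

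Along the Ccl5 markers several members moved with Gimap5. Gimap5 was at 409.7 CPM in cells with 5 or more and 209.6 CPM in cells with 0 (log2 ratio 0.97, 0.72 to 1.20). Gimap4 was at 888 CPM and 547 CPM in these cells (0.70, 0.53 to 0.86), Gimap7 at 339 CPM and 201 CPM (0.75, 0.48 to 1.01) and Gimap1 at 822 CPM and 533 CPM (0.62, 0.45 to 0.79). These 4 of 8 members were called higher, against 6.96% of genes, and 0 lower, against 0.749%. Gimap5 alone was called relative to the median gene, against 2.77% of genes. The top bin held 181 cells. Along the S100a4 markers 0 of 8 members were called, against 9.53% higher and 2.49% lower. Gimap5 rose and then fell along this list, at 212, 258, 274, 280, 230 and 221 CPM with 0, 1, 2, 3, 4 and at least 5 UMIs.

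Along the resting markers the order was turned round. Gimap5 was at 256, 224, 189.7, 151, 168 and 96.0 CPM with 0, 1, 2, 3, 4 and at least 5 resting-marker UMIs, and its log2 ratio of 5 or more over 0 was -1.42 (-1.95 to -0.93), on 131 cells with 34 Gimap5 UMIs in the top bin. Gimap7 was at 135.5 CPM with 5 or more and 234 CPM with 0 (-0.79, -1.23 to -0.38), with a median set ratio of -0.51, short of 1.5-fold. These were the 2 of 8 members called lower, against 2.95% of genes, and 0 were higher, against 2.08%. Relative to the median gene, which was 0.21 lower, Gimap5 alone was called, against 2.75% of genes.

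**Figure D3:**
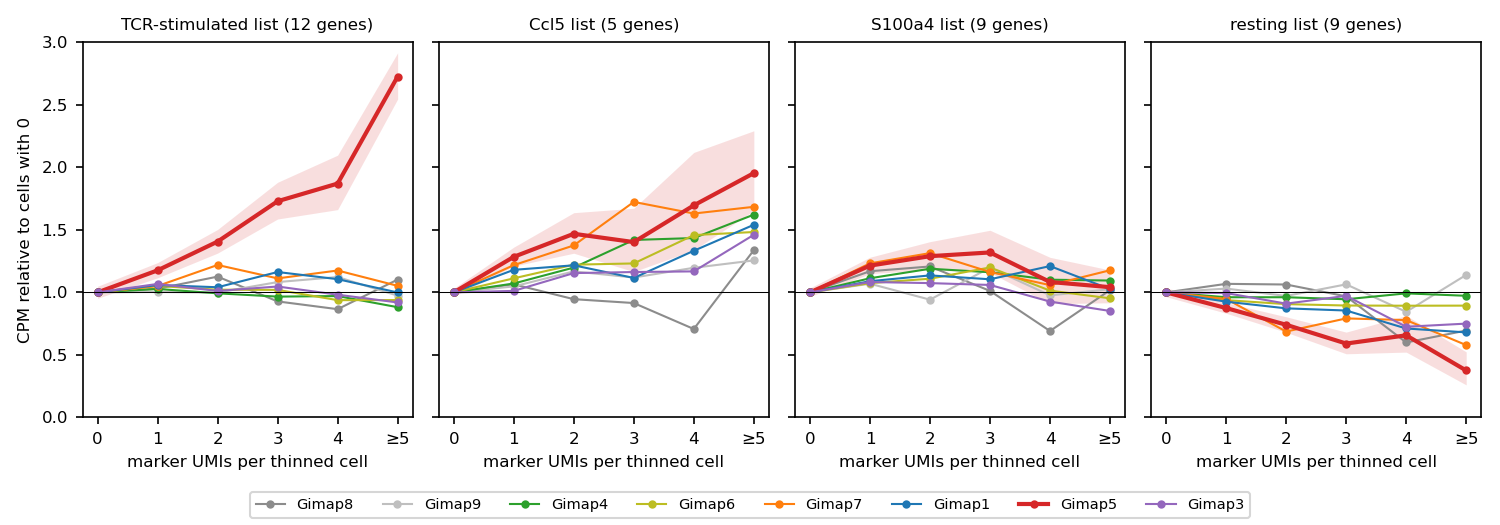
Level of each member relative to cells with 0 marker UMIs (vertical axis, ratio of CPM) against the number of marker UMIs in a thinned Treg cell (horizontal axis), for the TCR-stimulated, Ccl5, S100a4 and resting lists; the band is the 95% counting interval of Gimap5. With 5 or more TCR-stimulated marker UMIs Gimap5 reached 2.73 times its level at 0, while the other members stayed near 1.

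Markers of Treg cells and of other cell types moved with the comparison of activated and resting cells. The 5 Treg markers summed to 2190 CPM (2056 to 2313 over sets) in activated and 1024 CPM (934 to 1270) in resting cells, with no overlap, and the resting sum was close to the 886 CPM of the myeloid-like cells. The part of this difference in the Gimap ratios was not tested. The 6 B cell markers summed to 55.4 CPM (49.2 to 60.0 over sets) in activated and 31.5 CPM (22.6 to 37.4) in resting cells, where Ebf1 and Pax5 were at 0, and the sets did not overlap. The 5 myeloid markers summed to 169.6 CPM (144 to 205) in activated and 121 CPM (93.5 to 153) in resting cells, where Csf1r was at 0. Leaving out the deepest 2% of cells and every cell with a Cd79a, Lyz2, Hbb-bs or Cd8a UMI, the log2 ratio of Gimap5 was 1.04. With only cells of 1500 to 2500 UMIs in both states it was 0.97, and Gimap7 joined the calls at 0.72.

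Against the cells of other types in the sort, Treg cells had a summed Gimap level of 2963 CPM, compared with 2306 CPM (2091 to 2537) in B cell-like and 1293 CPM (1100 to 1510) in myeloid-like cells. Gimap3 was at 633 CPM in Treg and 329 CPM in B cell-like cells, a log2 ratio of 0.95 (0.58 to 1.34), and Gimap4 at 569 CPM in Treg and 334 CPM in B cell-like cells (0.77, 0.41 to 1.16), both higher in 6 of 6 sets. Gimap6 was at 0.37 (0.05 to 0.70), higher in 5 sets. The median measured gene was at 0.08 in this comparison. For the other 5 members the interval of the Treg over B cell-like ratio held 0. These were Gimap7 (0.40, -0.11 to 0.97), Gimap5 (0.07, -0.38 to 0.55), Gimap9 (-0.04, -0.63 to 0.62), Gimap1 (-0.10, -0.37 to 0.18) and Gimap8 (-0.50, -1.18 to 0.29), the last at 65.9 CPM in Treg and 93.1 CPM in B cell-like cells. All 8 members had a higher pooled level in Treg than in myeloid-like cells, with log2 ratios of 0.92 to 2.02 whose intervals stayed above 0. The median measured gene was at -0.05 there. For B cell-like and myeloid-like cells the share of all genes with such intervals or set directions was not counted. The number of members is therefore not read as a result about the family. The myeloid-like cells numbered 30 in all, at most 9 in a set, and their Treg markers summed to 886 CPM. The part of Treg RNA in their Gimap counts was not tested.

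Within single cells the members were detected almost independently of each other. Over the 28 pairs of members, thinned Treg cells with UMIs of both numbered 0.98 to 1.16 times what independent detection gives (median 1.04), and the correlation between detections was at most 0.05. In counts this sparse that is no finding. Over the 36 sums of 6 sets by 6 states, which share cells' libraries and depth, Pearson's r between members' log2 levels was -0.01 to 0.81, highest for Gimap1 with Gimap3 (0.81) and lowest for Gimap9 with Gimap5. Gimap5 correlated with Gimap3, Gimap4, Gimap6, Gimap7 and Gimap1 at 0.43, 0.12, 0.47, 0.44 and 0.54. Gimap3, Gimap4, Gimap6 and Gimap1 correlated with each other at 0.74 to 0.81. These values are descriptions.

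Among 1422 well-counted genes outside the marker lists, the summed Gimap level was most like AW112010 (r = 0.92 over the 36 sums), Shisa5 (0.89), Serpina3g (0.85), Fth1 (0.82), the ferritin heavy chain, and Btg1 (0.82), an antiproliferative gene. Gimap5 alone was most like Srgn (0.87), the proteoglycan serglycin, followed by Rilpl2 (0.84), Cd82 (0.83), a tetraspanin, Itm2c (0.83) and Ptprcap (0.82). Neither set of 5 shared a gene with the other. AW112010 was at 2585 CPM in activated and 1231 CPM in resting cells, a log2 ratio of 1.07, and Srgn at 842 CPM in activated and 328 CPM in resting cells (1.36).

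The neighbours of the cluster on chromosome 6 were examined in the same comparison. Of 52 genes annotated within 500 kb of the cluster beside the members, 18 were in the table and 9 had enough UMIs to be measured, and 0 of the 9 were called between activated and resting cells, against 9.07% of all measured genes higher and 1.18% lower, so that a count of 0 among 9 is near the background. Their log2 ratios were -0.10 to 0.73, with a median of 0.27. The highest belonged to 4833403J16Rik, a lincRNA just downstream of Gimap5 on the same strand, at 9.09 CPM in activated and 5.49 CPM in resting cells (0.73, 0.02 to 1.51), higher in 4 sets. The neighbour with most UMIs, the splicing factor gene Tra2a, was at 80.1 CPM in Treg cells, and Tmem176a and Tmem176b, beyond Gimap3, were at 6.41 and 8.75 CPM.

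Overlapping annotation touches several members. Gm28053, a readthrough gene on the same strand, shares 81 exon bases with Gimap7, 198 with Gimap1 and 153 with Gimap5, at most 6.44% of a member's exon bases, and had 127 UMIs of its own in Treg cells. Gimap1os, an antisense transcript not in the table, overlaps exons of Gimap1. Gimap5 and Gimap3 share an identical exon run of 140 bases, the longest of any of the 28 pairs (median 12), which ends 1387 bases from the 3′ end of Gimap5 and 1215 bases from that of Gimap3. How reads in such stretches were assigned is not given in the sources used here.

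**Figure D4:**
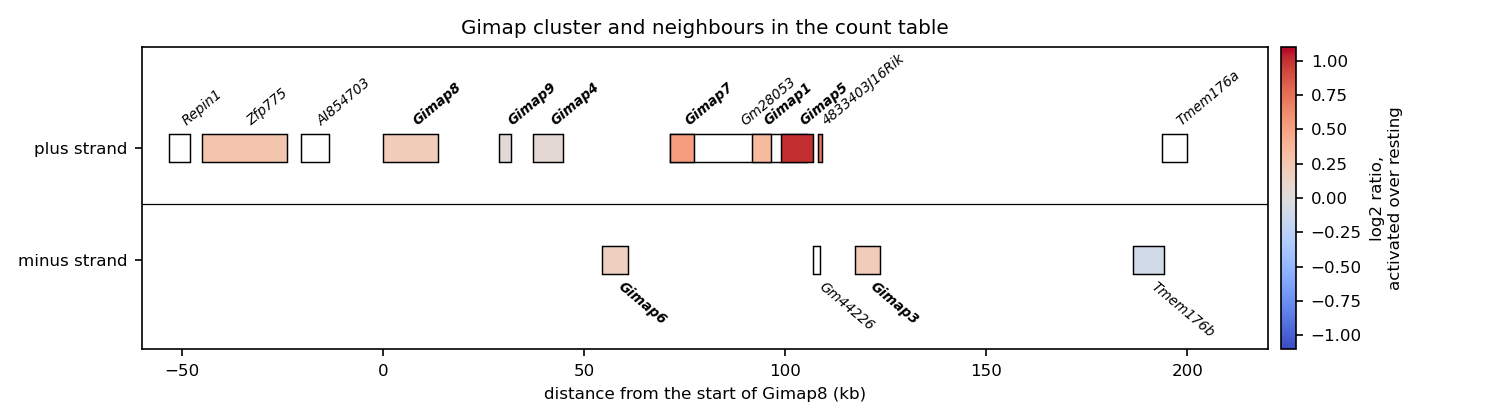
Map of the Gimap cluster and its neighbours that are in the count table, by distance in kb from the start of Gimap8 and by strand; the fill is the log2 ratio of activated over resting cells, and open boxes were not measured. Gimap5 carries the deepest red (1.01), between Gimap1 (0.35) and Gimap3 (0.21).

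Related pathways were described by the same call between activated and resting cells. Of 11 genes of the apoptosis and autophagy machinery that Gimap proteins have been linked to, all measured, 2 were called higher, against 9.07% of all measured genes, and 2 lower, against 1.18%. The median was 0.27, against 0.22 over all measured genes. The called antiapoptotic genes parted. Bcl2l1 was at 27.4 CPM in activated and 11.0 CPM in resting cells (log2 ratio 1.32, 0.83 to 1.84). Bcl2 was at 279 CPM in activated and 527 CPM in resting cells (-0.92, -1.002 to -0.84). The proapoptotic Bcl2l11, which encodes Bim, was also lower (-0.82, -1.30 to -0.32), and the autophagy gene Gabarapl1 was higher (1.01, 0.43 to 1.65). Gabarapl2, the partner of Gimap6, was at 0.36 (0.23 to 0.50) and was not called. The antiapoptotic Mcl1 was at 0.14 (-0.05 to 0.34), higher in 3 sets and lower in 3, and was not called either.

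Of 15 quiescence and survival genes, 1 was called higher, Il7r (0.73), the interleukin-7 receptor that sustains naive T cells, against 9.07% of measured genes, and 4 lower, against 1.18%, with a median of -0.09. Those lower were Tsc22d3 (-1.12), a glucocorticoid-induced regulator, S1pr1 (-0.90), the receptor for exit from lymphoid organs, its activator Klf2 (-0.84) and Foxp1 (-0.68), a quiescence factor. Relative to the median gene 0 were higher, against 5.07%, and 7 lower, against 2.96%. Of 12 measured genes of other immune GTPase families, the interferon-inducible Gbp and Irg genes, 0 were called in either direction, against 9.07% and 1.18%, with a median of -0.12, and 2 were lower relative to the median gene, Gbp2 and Iigp1, against 2.96%.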

How the data were processed

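Enrichment of CD4 T cells, FACS sorting and the 10x Chromium 3′ v2 chemistry are given per the labels' protocols, which also name bulk RNA steps without saying how they apply. The build mm10 and the tools Cell Ranger, Seurat, HISAT2, cutadapt and FastQC come from the submitters' processing notes, without versions or roles. The authors deposited whole UMI counts of 14098 genes in 10685 cells, and a second table of 10464 of these cells in natural log units, which equalled ln(1 + 10000 × count / cell total) and served only to select cells for an alternative. Cell columns carry no sample name, so cells were summed by barcode set, and neither a comparison of genotypes nor a test was made.

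A cell was kept if it had 200 or more genes and a mitochondrial share below 10% (10680 cells). Each was thinned to 1000 UMIs (seed 1) to set its state. Cycling and interferon cells needed 3 UMIs of their lists, Tmem176 cells 2, B cell-like and myeloid-like cells 3 and erythroid-like cells 10, with cycling, interferon and Tmem176 set before the other states. Unthinned UMIs were then summed per state and set. Ratios are of UMIs pooled over sets with exact conditional binomial intervals, levels have exact Poisson and shares exact Clopper-Pearson intervals, and 0.5 UMIs were added for the ratio of a single set (Python 3.11.15, numpy 2.4.6, scipy 1.17.1, pandas 2.3.3, matplotlib 3.10.9). Correlations used log2 of CPM plus 10 and genes with at least 2000 UMIs. Cells share their source and are not independent, so intervals cover counting error only. The comparison was tested on simulated data. No doublet caller was run. Motif letters were searched in the RefSeq promoters, and all 8 members were matched by symbol.

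The members, marker lists, related lists and settings were chosen with earlier results of these data known. The genes to name were all members, the 5 genes most like the summed level and the neighbours within 500 kb. Of each related list, the called members and at most 4 others by size of ratio were to be named. The genes most like Gimap5 alone, those called only relative to the median gene, and Mcl1 were named after their values were seen. Alternatives changed the thinning, the marker threshold, the totals, the cells and sets kept and the fold. Those on cell depth, on the TCR-stimulated list and on the cycling, interferon and Tmem176 cells were chosen after seeing the data.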

Additional observations from a re-analysis of the deposited data

Results flagged for a closer look

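Of 35 series of 6 barcode sets looked at, 3 had a set far from the others, where chance gives about 1 in 20. The sets are not tied to samples. In resting cells the level of Gimap5 was 203.3 CPM in set 6, and the next highest set had 147 CPM. The log2 ratio of Gimap1 in activated over resting cells was 0.63 in set 3, and the next highest was 0.31. The log2 ratio of Gimap3 in activated over resting cells was 0.34 in set 5, and the next highest was 0.21.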

How the results depend on the processing

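Gimap5 had the largest activated-over-resting ratio of the 8 members and was called higher under each of 25 alternatives, with log2 ratios of 0.69 to 1.11. These alternatives are not independent. Without a set, the call asks direction only of the sets left, so a member higher in 6 of 6 sets keeps its direction. Another 5 change the thinning seed alone. The Gimap5 ratio of 1.01 moved to 0.84 with totals without ribosomal protein and mitochondrial genes and to 0.79 relative to the median gene. It moved to 0.69 when the TCR-stimulated list was not used to define activated cells. Leaving out each set in turn gave 0.97 to 1.05. The members' median of 0.21 moved to 0.064 with tertiles of the marker difference, 0.032 with the reduced totals, -0.010 relative to the median gene and 0.042 with the TCR-stimulated list alone, and ran from 0.19 to 0.23 without single sets. The count of members called higher moved from 1 to 2, with Gimap7 added, for levels from thinned UMIs and for cells of 1500 to 2500 UMIs, and to 4 for direction in 6 of 6 sets without a fold. It stayed 1 without any single set. Relative to the median gene Gimap5 was 0.40 in S100a4 cells and 1.005 in TCR-stimulated cells. The median over sets of the summed level was 2900.3 CPM, 4554 CPM with the reduced totals, 3046 CPM in activated cells alone and 2658 CPM in resting cells alone, and the highest set over the lowest was 1.25, or 1.13 with the reduced totals. Of 580 values of single members under alternatives, which leave out Gimap5 in activated cells and their 3 kinds, 63 moved. Sign was scored only for values called in the main setting, and 0 of these changed it. For activated over resting cells, the uncalled Gimap8, Gimap9, Gimap4, Gimap6 and Gimap3 were above 0 in 23, 21, 22, 22 and 24 of 25 alternatives. Apart from the reduced totals, the cell selections and the median gene, which differ by construction, the cause of the moves was not tested. No paired analysis was possible because the replicate numbers belong to the cKO and WT samples, which no cell column names; the states were compared within each barcode set, as the call requires.

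Depth limits Gimap8 and Gimap9 most, with 209 and 420 UMIs in resting cells. The states come from few marker UMIs per cell, cells rather than animals carry the intervals, and without a link from sets to samples neither genotype nor the spread between mice entered any value.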

Other observations

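The summed Gimap level in Treg cells differed between the barcode sets, which carry no sample name. It was 2751, 2749, 2702, 3198, 3367 and 3050 CPM in sets 1 to 6, so that sets 1 to 3 lay at 2702 to 2751 CPM and sets 4 to 6 at 3050 to 3367 CPM. This grouping of the sets was made after the values were seen, and how many other genes divide the same way was not counted. It was also seen within activated cells (2966, 2891, 2970, 3304, 3495 and 3122 CPM) and within resting cells (2493, 2554, 2369, 2838, 2951 and 2762 CPM). Ribosomal protein genes summed to 316289 to 376806 CPM over the sets. As given above, the sets differed less with totals without ribosomal protein and mitochondrial genes. The part of these totals in the grouping was not tested. Gimap4 had 519.5, 517, 489.6, 664, 681 and 554 CPM in Treg cells of sets 1 to 6, and Gimap5 223, 204, 209, 217, 243 and 280.0 CPM. The share of Treg cells called activated was 42.1 to 60.6% over the sets. Activated cells numbered 860, 774, 728, 1032, 997 and 913 in sets 1 to 6, and resting cells 275, 263, 274, 170, 152 and 154. They were counted among 1846, 1697, 1730, 1737, 1645 and 1593 Treg cells. Sets 4 to 6 thus held more activated and fewer resting cells than sets 1 to 3, the same division as in the summed level. The part of this make-up in the grouping was not tested.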
